A study of Homo sapiens with 46 samples.

Results

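A set of 10 genes of vitamin A (retinoid) metabolism and signalling was followed in the established colorectal adenocarcinoma line DLD-1, of human origin, before and during exposure to auxin. The set was put together because DHRS3 rose most in auxin-treated parental cells in an earlier look at these data, so the members were chosen by the read counts of that contrast. It holds the enzymes DHRS3, RDH10, RDH11, ALDH1A3 and CYP26B1, the carrier CRABP2 and the nuclear receptors RARA, RARB, RARG and RXRA. All 10 genes were found among the 62756 genes of the count table, and all 10 passed the low-count filter. Changes of these genes after auxin in parental cells are given as a description with no test, because that contrast chose the set.

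RNA was sequenced from 4 cell lines at 0, 16 and 96 h of auxin, with 46 libraries in 12 groups. The parental line carries no tag (genotype WT), and in the other lines an auxin-inducible degron was added to the N-terminal end of the endogenous Lamin A/C (LA/C-AID, here LAC), Lamin B1 (LB1-AID, here LB1) or Lamin B2 (LB2-AID, here LB2). Auxin was dissolved in DMSO and used at 1 mM. The labels do not say whether the 0 h wells received DMSO, whether a tagged line is 1 clone, or where the receptor protein that couples auxin to degradation comes from. A replicate was 1 well of a 6-well plate, so p-values measure the spread between wells; 10 groups had 4 libraries, and LB1 at 0 h and LB2 at 96 h had 3.

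Cells oxidise retinol to retinal and then to retinoic acid, the form that acts on genes. RDH10 carries out the first step and DHRS3 reverses it, the ALDH1A enzymes carry out the second step, and CYP26 enzymes break retinoic acid down. CRABP2 delivers retinoic acid to the nucleus, where a retinoic acid receptor (RAR) paired with a retinoid X receptor (RXR) binds response elements in DNA. DHRS3, CYP26A1 and RARB are textbook genes that retinoic acid turns on, so DHRS3 lowers retinal as part of a feedback on the pathway, and in the intestine retinoic acid is known for its part in epithelial differentiation.

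The response element known best is a direct repeat of a short motif with a spacer of 5 bases, and the windows shown were chosen because one of them holds it and the other belongs to the gene that chose the set. Windows of 250 bases before to 50 bases after a start site (RefSeq, GRCh38.p14) were searched on both strands for the binding motif AGGTCA, its variant AGTTCA, the further variant GGGTCA or the last variant GGTTCA, followed after any 5 bases by 1 of these motifs in the same orientation. Repeats with spacers of 1 and 2 bases, searched in the same way, were in 0 windows of the set. They were in 46 and 14 of all 35116 windows. Among all these windows 31 (0.0883%) held the repeat with a spacer of 5 bases, a share given as a description with no test. Of 17 windows of 9 of the genes (none was given for RDH10), 1 held that repeat. It lies in a window of RARB, chr3:25428013-25428262 on the plus strand up to the start site, where the repeat, in capitals, begins 53 bases before the start:
RARB: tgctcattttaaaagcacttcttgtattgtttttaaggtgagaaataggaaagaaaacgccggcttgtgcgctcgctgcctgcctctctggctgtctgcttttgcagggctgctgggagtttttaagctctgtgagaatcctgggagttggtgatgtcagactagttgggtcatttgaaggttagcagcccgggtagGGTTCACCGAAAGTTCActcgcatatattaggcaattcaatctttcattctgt
DHRS3: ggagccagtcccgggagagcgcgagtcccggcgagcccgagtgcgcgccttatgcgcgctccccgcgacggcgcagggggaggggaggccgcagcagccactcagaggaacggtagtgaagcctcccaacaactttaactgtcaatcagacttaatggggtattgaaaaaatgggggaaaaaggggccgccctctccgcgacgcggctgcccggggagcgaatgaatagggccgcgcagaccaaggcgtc
The DHRS3 sequence, chr1:12618211-12618460 on the minus strand, ends at the start site used for counting, and none of its letters are in capitals because none of the 3 DHRS3 windows held the repeat. That says only that these letters are not in these windows. Outside the set, 1 of 2 windows of CYP26A1 held the repeat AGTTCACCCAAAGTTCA on the opposite strand.

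The libraries held 479446 to 37309421 counts (median 11533218), and 6 had under 5000000, 5 of them at 0 h. Levels are in CPM, the count of a gene relative to its library size after TMM scaling, which corrects for differences in composition between libraries. A count of 0 allows 3 counts, or 0.0821 CPM in the deepest library and 6.53 in the shallowest, replicate 3 of LB2 at 16 h. That library, replicate 1 of LAC at 0 h and replicate 1 of LB2 at 0 h stood apart, with a median absolute log2 deviation from their own groups of 0.505, 0.547 and 0.527 against at most 0.34 elsewhere. Deviations correlated with the GC content of the genes at -0.79 to 0.73 over all libraries (Spearman across 8547 genes), with 0.68 and 0.72 in the pair of 0 h libraries that stood apart and values as strong in some others. The log2 changes of all genes correlated with GC content at -0.72 and -0.66 in LAC at 16 and 96 h, and at -0.48 and -0.22 in LB2. The epithelial markers EPCAM (321 to 598 CPM), CDH1, KRT8, KRT18, KRT19, KRT20 and CDX2 were present in every library, while VIL1 and LGALS4 were low and CDX1 was at 0 in 40 of 46. Of the markers of blood, fibroblast and endothelial cells, VWF was above 0 in every library (2.18 to 17.5 CPM), COL1A1 and PECAM1 reached 5.54 and 1.23 CPM, and PTPRC, CD3E, CD68 and COL3A1 stayed under 1 CPM. In such bulk RNA a change in the share of cells that express a gene and a change in RNA per cell cannot be told apart.

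Before auxin the genes differed widely in level. Per kilobase of counted transcript, RDH10 had the highest group means in every line at 0 h, 21.7 to 42.4 CPM per kilobase. CYP26B1 (8.56 to 21.8), RDH11 (11.1 to 16.5), RARG (9.57 to 17.3) and CRABP2 (3.33 to 14.9) followed, then RXRA (4.8 to 6.44) and RARA (4.11 to 5.91). ALDH1A3 lay at 0.803 to 0.9, DHRS3 at 0.0406 to 0.476 and RARB at 0.0842 to 0.178 CPM per kilobase. RNA of RDH10, which makes retinal, was the most abundant of the set. RNA of DHRS3, which reverses that step, and of RARB, the receptor gene with the response element, was near the limit of detection. RNA of RDH11, also a retinal reductase, was not.

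**Figure D1:**
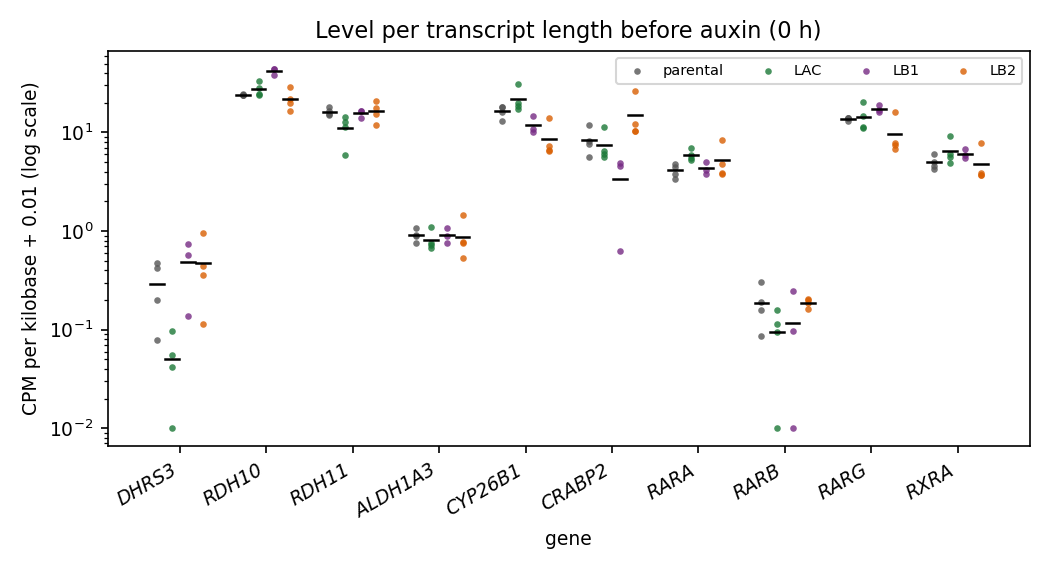
Level of each gene at 0 h in CPM per kilobase plus 0.01, on a log scale; points are libraries coloured by line and black bars are group means. RDH10 is highest (group means 21.7 to 42.4), and DHRS3 and RARB lie lowest, with LAC lowest for DHRS3 (0.0406).

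DHRS3, the retinal reductase, rose in all 3 tagged lines at 96 h. It lies on chromosome 1, 12567910 to 12618210, minus strand (ENSG00000162496.9; positions are on GRCh38, as the count table gives them). In LAC it went from 0, 0.111, 0.159 and 0.302 CPM at 0 h, through 0.206, 0.568, 0.896 and 0.717 at 16 h, to 3.92, 3.91, 4.26 and 4.26 at 96 h. The 4 libraries at 0 h held 0 to 4 counts each and 8 in all, which is 0.161 CPM with an exact Poisson 95% interval of 0.0695 to 0.317 that covers counting error only. Each LAC library at 96 h lay above each at 16 h, while the 0 and 16 h groups overlapped. The log2 change at 96 h was 4.57 ± 0.72 (standard error; edgeR adjusted p 4.97e-08), or 23.8-fold with a 95% interval of 8.67 to 65.3.

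In LB1, DHRS3 was at 0.446, 1.99 and 2.58 CPM at 0 h, 2.85, 2.71, 3.08 and 5.31 at 16 h, and 30.9, 35.4, 36.5 and 26.8 at 96 h. The 3 groups did not overlap, but the 1.99 CPM at 0 h is only 3 counts in replicate 2, a library of 1452968 counts. LB1 at 96 h had the highest DHRS3 of all 12 groups, and its lowest library was above every library of the other groups. The log2 change at 96 h was 4.53 ± 0.43 (edgeR adjusted p 5.89e-10), 23.1-fold with an interval of 12.7 to 42. In LB2, DHRS3 was at 3.33, 1.24, 0.368 and 1.53 CPM at 0 h, 3.58, 3.45, 0 and 4.17 at 16 h, and 10.9, 9.78 and 8.82 at 96 h. The LB2 library at 0 is the shallowest of the series, in which 3 counts are 6.53 CPM, and the 96 h libraries lay above all others of that line. The log2 change at 96 h was 3.07 ± 0.45 (edgeR adjusted p 4.31e-06), 8.4-fold with an interval of 4.5 to 15.7. These 96 h calls held in all 49 alternatives tried, libraries that stand apart left out included (4.48 in LAC without replicate 1 at 0 h, and 3.34 in LB2 without replicate 1 at 0 h).

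At 16 h the DHRS3 changes were smaller. Only that of LB2 was called, 1.64 ± 0.45 (edgeR adjusted p 0.0395), and 9 of its 17 alternatives lost the call, 6 of them by leaving out 1 library, replicate 2, 3 or 4 at 0 h or 1, 2 or 4 at 16 h (1.19 to 1.73, edgeR adjusted p 0.0659 to 0.209). The changes of LAC, 1.87 ± 0.76, and LB1, 1.38 ± 0.45, were not called (edgeR adjusted p 0.111 and 0.101). LB1 passed the threshold in 4 of 16 alternatives, and its change lay between 0.58 without replicate 1 and 2.59 without LB1 replicate 3 at 0 h (edgeR adjusted p 0.0353 for the latter). From 16 to 96 h DHRS3 rose by 2.699 ± 0.398 in LAC, by 3.15 ± 0.31 in LB1 and by 1.43 ± 0.35 in LB2 on the log2 scale (edgeR adjusted p 3.36e-06, 1.33e-09 and 0.0171). The LB2 rise lost the call in each of 4 alternatives that left out 1 library, replicate 1 or 2 at either time (1.396 to 1.48, edgeR adjusted p 0.0549 to 0.0798).

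**Figure D2:**
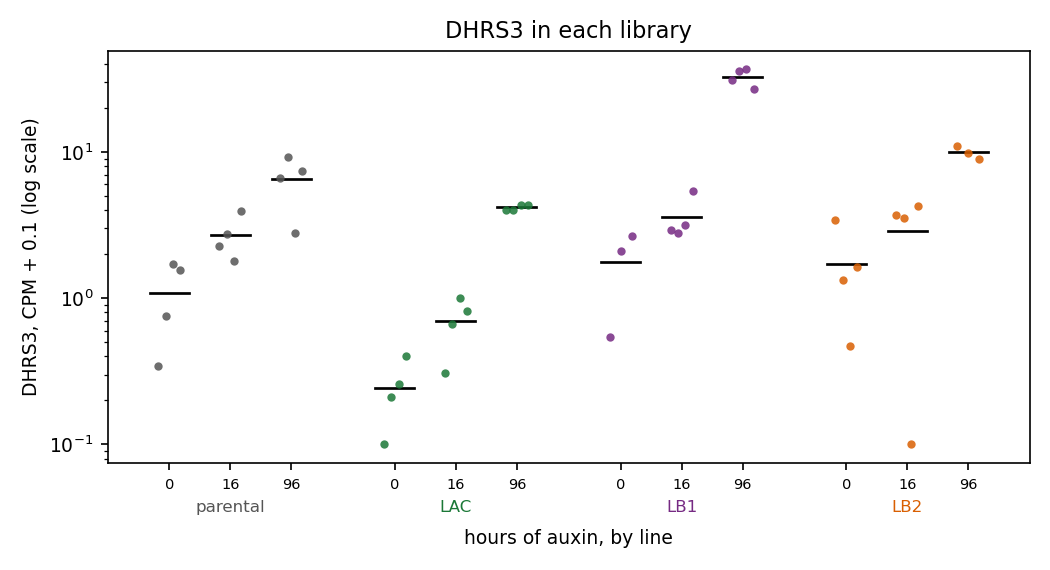
DHRS3 in each of the 46 libraries, in CPM plus 0.1 on a log scale, by line and hours of auxin; points are libraries and bars are group means. Every tagged line is highest at 96 h, LB1 most of all at 26.8 to 36.5 CPM, and LAC starts lowest, at 0 to 0.302.

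Whether the lines differed in the size of the DHRS3 rise was tested directly. At 96 h the log2 change in LAC minus that in LB1 was 0.04 ± 0.84, with a 95% interval of -1.65 to 1.74, so both a larger and a smaller rise in LAC are within it. LAC minus LB2 was 1.502 ± 0.85 (interval -0.21 to 3.21) and LB1 minus LB2 was 1.46 ± 0.62 (interval 0.21 to 2.71), with edgeR adjusted p of 0.434 and 0.614. At 0 h DHRS3 was lower in LAC than in LB1 and LB2, with log2 differences of -3.03 ± 0.79 and -2.76 ± 0.79 (edgeR adjusted p 0.00123 and 0.0037). The first call was lost without LB1 replicate 3 (-1.83, edgeR adjusted p 0.173), and the second with limma voom (-1.58, limma adjusted p 0.129), where the first was -1.897 and called (limma adjusted p 0.048). LB1 and LB2 differed by 0.27, with an interval of -0.81 to 1.34.

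In parental cells, which have no degron, DHRS3 was at 0.244, 0.66, 1.61 and 1.45 CPM at 0 h, 2.18, 2.65, 1.7 and 3.82 at 16 h, and 6.54, 9.18, 2.68 and 7.35 at 96 h. These are the values that chose the set. The parental log2 changes were 1.57 and 2.92, beside 1.64 and 3.07 in LB2; the response of a tagged line was not tested against the parental one here. Ordered by group mean, the 12 groups ran from LAC at 0 h (0.143 CPM) to LB2 at 96 h (9.83) and LB1 at 96 h (32.4). Of the 11 pairs of neighbours in that order, 10 overlapped in their libraries, and only LB1 at 96 h was apart from its neighbour.

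RDH10, the retinol dehydrogenase that DHRS3 opposes, rose less in fold but from a far higher level. It was called higher at 16 and 96 h in LAC and LB2 and at 16 h in LB1. In LAC it was at 178, 149, 128 and 129.8 CPM at 0 h, 198, 192, 239.8 and 233 at 16 h, and 240.4, 230.2, 242 and 262 at 96 h, so that the 0 h group overlapped neither later group. The log2 changes were 0.56 ± 0.11 and 0.74 ± 0.11 (edgeR adjusted p 0.00528 and 9.88e-06), or 1.48-fold and 1.67-fold. In LB2 it went from 153, 116, 106 and 87.6 CPM to 217, 206, 185 and 172 at 16 h and to 192, 207 and 199 at 96 h, with no overlap between 0 h and either time. The LB2 changes were 0.77 ± 0.12 and 0.80 ± 0.12 (edgeR adjusted p 4.14e-05 and 2.17e-05).

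LB1 had the most RDH10 at each time. It was at 206, 236 and 236 CPM at 0 h, 332, 358, 347 and 348 at 16 h, and 309.8, 285, 295 and 303 at 96 h. The 16 h libraries were above the 96 h ones, and both above those at 0 h. The change was 0.62 ± 0.12 at 16 h (edgeR adjusted p 0.00435) and 0.40 ± 0.12 at 96 h, which was not called (edgeR adjusted p 0.0599). At 0 h LB1 exceeded LB2 and the parental line, with log2 differences of 0.98 ± 0.12 and 0.81 ± 0.12 (edgeR adjusted p 4.7e-08 and 5.23e-06), and LAC minus LB1 was -0.63 ± 0.12 (edgeR adjusted p 0.000178). The parental means were 128, 189 and 203 CPM at 0, 16 and 96 h.

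Several values bear on RDH10. It has 46.4% GC, and after taking out the trend of GC content and length the LAC change at 16 h was 0.38 (edgeR adjusted p 0.175), while at 96 h it was 0.55 and kept its call. The LB1 change at 16 h was lost without LB1 replicate 1 at 0 h (0.56, edgeR adjusted p 0.0712). With the compared groups fitted alone the changes of LAC at 16 h and of LB2 at both times were not called (0.53, 0.70 and 0.80, edgeR adjusted p 0.334, 0.684 and 0.112). RDH10 (ENSG00000121039.10, chromosome 8, 73294602 to 73325281, plus strand) overlaps RPL7 and RDH10-AS1 on the other strand. The kit keeps strand, but whether the counting used it is not given in the sources used here, so reads of those genes cannot be told apart from its own with certainty.

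ALDH1A3, which makes retinoic acid from retinal, rose in LAC and LB1 at both times (ENSG00000184254.17, chromosome 15, 100877714 to 100916626, plus strand, with antisense genes on the other strand). In LAC it was at 3.56, 5.77, 3.81 and 4 CPM at 0 h, 7.7, 8.36, 9.9 and 8.38 at 16 h, and 13.5, 10.4, 11.7 and 11.5 at 96 h, with no overlap between any of these groups. The log2 changes were 0.93 ± 0.21 and 1.39 ± 0.20 (edgeR adjusted p 0.0111 and 4.17e-06). In LB1 it was at 4.71, 3.98 and 5.71 CPM at 0 h, 7.11, 9.3, 9.8 and 9.83 at 16 h, and 8.82, 9.96, 10.5 and 9.47 at 96 h. Both later LB1 groups lay above 0 h and overlapped each other. The log2 changes were 0.86 ± 0.23 and 0.95 ± 0.23 (edgeR adjusted p 0.045 and 0.0102).

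LB2 had 7.76, 3.96, 2.76 and 4.08 CPM of ALDH1A3 at 0 h, 6.71, 6.78, 2.18 and 6.1 at 16 h, and 6.7, 7.3 and 6.01 at 96 h, and neither change, 0.65 ± 0.23 and 0.72 ± 0.24, was called (edgeR adjusted p 0.13 and 0.0814). Its highest 0 h value and its lowest 16 h value are in libraries that stand apart; without replicate 1 at 0 h the 96 h change was 0.92 and passed (edgeR adjusted p 0.016). The LB1 call at 16 h was lost in 10 of 16 alternatives, also without any 1 of 6 libraries, replicates 1, 2 and 3 at 0 h and 2, 3 and 4 at 16 h (0.79 to 1.00, edgeR adjusted p 0.0628 to 0.227), and that at 96 h without LB1 replicate 1 at 0 h (0.89, edgeR adjusted p 0.105). The LAC call at 16 h was lost without replicate 3 at 0 h or at 16 h (0.88 and 0.87, edgeR adjusted p 0.0514 and 0.0613). Parental means were 4.79, 4.88 and 7.84 CPM.

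**Figure D3:**
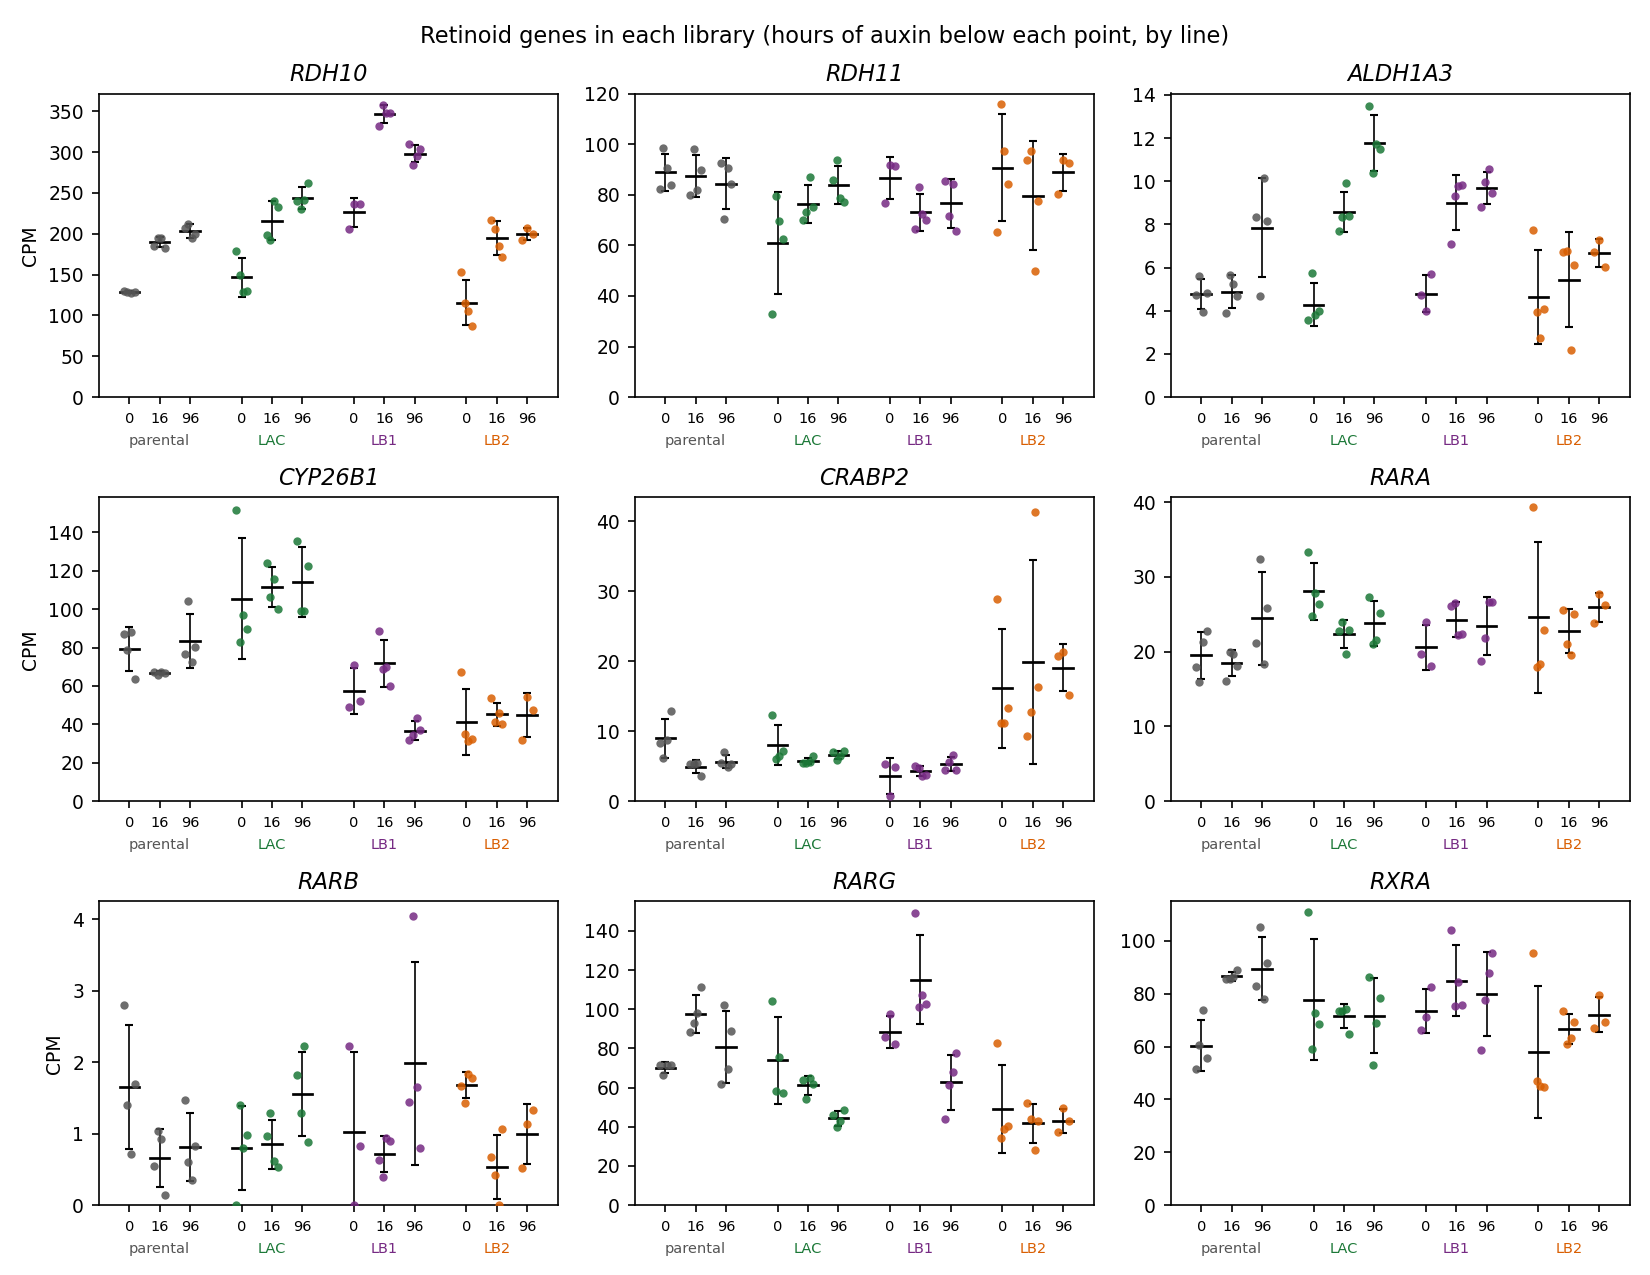
The other 9 genes in every library, in CPM from 0, by line and hours of auxin; points are libraries, bars are group means and error bars are SD, cut at 0. RDH10 lies above its 0 h level at both times in every tagged line, LB1 holds the highest RDH10 at each time (206 to 358 CPM), and RARG in LAC is lowest at 96 h (39.8 to 48.4 CPM).

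CYP26B1, which degrades retinoic acid (ENSG00000003137.9, chromosome 2, 72129238 to 72147862, minus strand), was not called against 0 h in any tagged line (log2 changes -0.60 to 0.36, lowest edgeR adjusted p 0.0912). In LB1 it was at 48.9, 71 and 52.4 CPM at 0 h, 88.5, 68.9, 69.7 and 59.8 at 16 h, and 31.7, 34.7, 43.3 and 37.3 at 96 h, so that every 96 h library was below every other LB1 library. From 16 to 96 h it fell by 0.96 on the log2 scale with a standard error of 0.18 (edgeR adjusted p 0.000155). That call held in all 17 alternatives. At 0 h LAC had more CYP26B1 than LB1 and LB2, by 0.90 ± 0.20 and 1.403 ± 0.186 on the log2 scale (edgeR adjusted p 0.00112 and 4.27e-07), and LB2 had less than the parental line, -1.01 ± 0.19 (edgeR adjusted p 0.000224). The related CYP26A1, among the genes best known to respond to retinoic acid, reached at most 0.931 CPM in any library.

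RDH11, another retinal reductase (ENSG00000072042.13, chromosome 14, 67676800 to 67695793, minus strand), was called in no tagged line against 0 h (log2 changes -0.24 to 0.43, lowest edgeR adjusted p 0.059). Its level lay between 32.7 and 116 CPM over all libraries. At 0 h it was lower in LAC than in LB2, -0.57 ± 0.16, and than in the parental line, -0.52 ± 0.16 (edgeR adjusted p 0.0113 and 0.0229). Replicate 1 of LAC at 0 h, which stands apart, held the lowest value of 32.7 CPM, and without it the differences were -0.39 and -0.30 and not called (edgeR adjusted p 0.0653 and 0.174). The second was also lost without replicate 2 of the parental line (-0.41, edgeR adjusted p 0.127) or replicate 4 of LAC (-0.48, edgeR adjusted p 0.0707), and the first without replicate 2 of LB2 (-0.43, edgeR adjusted p 0.0968).

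CRABP2, the carrier (ENSG00000143320.9, chromosome 1, 156699606 to 156705816, minus strand), was not called after auxin in any tagged line (-0.38 to 0.38, lowest edgeR adjusted p 0.452). At 0 h LB2 differed from LAC and LB1 instead, while LAC and LB1 were not called against each other. LB2 at 0 h had 28.8, 11.1, 11.1 and 13.2 CPM, while LAC had 12.3, 6.06, 6.51 and 7.09 and LB1 had 5.26, 0.664 and 4.88. Every LB1 library was below every LB2 library, and LAC overlapped LB2 through its replicate 1. Parental cells had 6.11 to 12.8 CPM at 0 h, which overlapped LAC and LB2, and no tagged line was called against them. Parental CRABP2 was at 3.53 to 5.41 CPM at 16 h and 4.82 to 7.08 at 96 h. The 0.664 CPM of LB1 is 1 count in replicate 2, a library of 1452968 counts in which 3 counts are 1.99 CPM. The log2 difference from LB2 was -0.96 ± 0.28 in LAC and -1.69 ± 0.33 in LB1 (edgeR adjusted p 0.0149 and 0.000214). Without replicate 1 of LB2 the first was -0.63 and not called (edgeR adjusted p 0.0787), as it was without replicate 2 of LAC (-0.81, edgeR adjusted p 0.05575), and the second was -1.36 and called (edgeR adjusted p 0.00112).

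RARG was the only receptor gene called against 0 h, and the only gene of the set called lower in such a comparison (ENSG00000172819.17, chromosome 12, 53210567 to 53232980, minus strand). In LAC it was at 104, 58.2, 75.6 and 57.3 CPM at 0 h, 63.7, 54, 65.1 and 61.7 at 16 h, and 46.2, 39.8, 43 and 48.4 at 96 h, with every 96 h library below every earlier one. It fell by 0.71 on the log2 scale with a standard error of 0.19 (edgeR adjusted p 0.00648). Without replicate 1 of LAC at 0 h the change was -0.50 and not called (edgeR adjusted p 0.0628). RARG has 60.9% GC, and after removing the trend of GC and length the change was -0.35 and called (edgeR adjusted p 0.00972). In LB1 it was at 86, 97.6 and 82 CPM at 0 h, 149, 101, 107 and 103 at 16 h, and 44.1, 61.2, 67.8 and 77.7 at 96 h. The 16 h libraries were the highest of the line and the 96 h libraries the lowest. From 16 to 96 h it fell by 0.87 in LB1 with a standard error of 0.18 (edgeR adjusted p 0.000647), which held in all 17 alternatives. Parental cells had 66.3 to 71.8 CPM of RARG at 0 h, 88.3 to 111 at 16 h and 62 to 102 at 96 h.

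At 0 h RARG was higher in LAC and LB1 than in LB2, by 0.64 ± 0.19 and 0.92 ± 0.21 on the log2 scale (edgeR adjusted p 0.017 and 0.00178), and lower in LB2 than in the parental line, -0.59 ± 0.19 (edgeR adjusted p 0.0483). Replicate 1 of LB2 was at 82.6 CPM and the other 3 were at 34.4 to 40.5. Without it these differences were 0.95, 1.21 and -0.87 and were all called (edgeR adjusted p 4.23e-05, 2.54e-06 and 0.00042). The difference from the parental line was lost without any 1 of the other 7 libraries (-0.60 to -0.45, edgeR adjusted p 0.06995 to 0.227), and that between LAC and LB2 without replicate 1 of LAC or replicate 2 or 3 of LB2 (0.46 to 0.55, edgeR adjusted p 0.0775 to 0.113). After removing the trend of GC and length, LAC minus LB2 for RARG was 0.39 and still called.

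RARB, the receptor gene with the response element shown above, stayed at 0 to 4.05 CPM and was at 0 in 3 libraries; its highest count was 52. It was not called in any tagged line against 0 h (-1.22 to 0.69, lowest edgeR adjusted p 0.259). In LB1 it was at 0.632, 0.387, 0.934 and 0.897 CPM at 16 h and 1.44, 4.05, 1.65 and 0.798 at 96 h, which overlap. The rise between these times was 1.42 ± 0.51 (edgeR adjusted p 0.0386) and was lost in 7 of 16 alternatives, among them without LB1 replicate 2 at 96 h (0.84, edgeR adjusted p 0.308) and without any 1 of the 16 h libraries (1.2 to 1.57, edgeR adjusted p 0.0551 to 0.128). LB1 at 0 h held 0 to 2.23 CPM of RARB and overlapped both later groups. Pooled over each group, LB1 had 1.66, 0.778 and 2 CPM at 0, 16 and 96 h. Pooled parental values were 1.7, 0.839 and 0.903 CPM, LAC values 1.13, 0.826 and 1.64, and LB2 values 1.62, 0.721 and 1.08. RARB (ENSG00000077092.20, chromosome 3, 24687887 to 25597932, plus strand) overlaps TOP2B on the other strand and noncoding genes on both.

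RARA, a widely expressed receptor (ENSG00000131759.18, chromosome 17, 40309180 to 40357643, plus strand), and RXRA, the partner of all retinoic acid receptors (ENSG00000186350.12, chromosome 9, 134317098 to 134440585, plus strand), were called in no tagged line against 0 h, at 15.9 to 39.4 and 44.8 to 111 CPM over all libraries. Their changes lay between -0.31 and 0.28 and between -0.10 and 0.37 (lowest edgeR adjusted p 0.291 and 0.337). RARA was higher in LAC than in the parental line at 0 h by 0.52 ± 0.17 (edgeR adjusted p 0.0321), a call lost in 9 of 17 alternatives, also without replicate 1 or 2 of the parental line or 1 or 3 of LAC (0.48 to 0.52, edgeR adjusted p 0.053 to 0.0786). RXRA in parental cells had means of 60.3, 86.6 and 89.5 CPM, and in LB2 58, 66.7 and 72. Without replicate 1 of LB2 at 0 h, which was at 95.4 CPM beside 44.8 to 46.8 in the others, the LB2 change at 96 h was 0.67 and was called (edgeR adjusted p 0.0149).

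**Figure D4:**
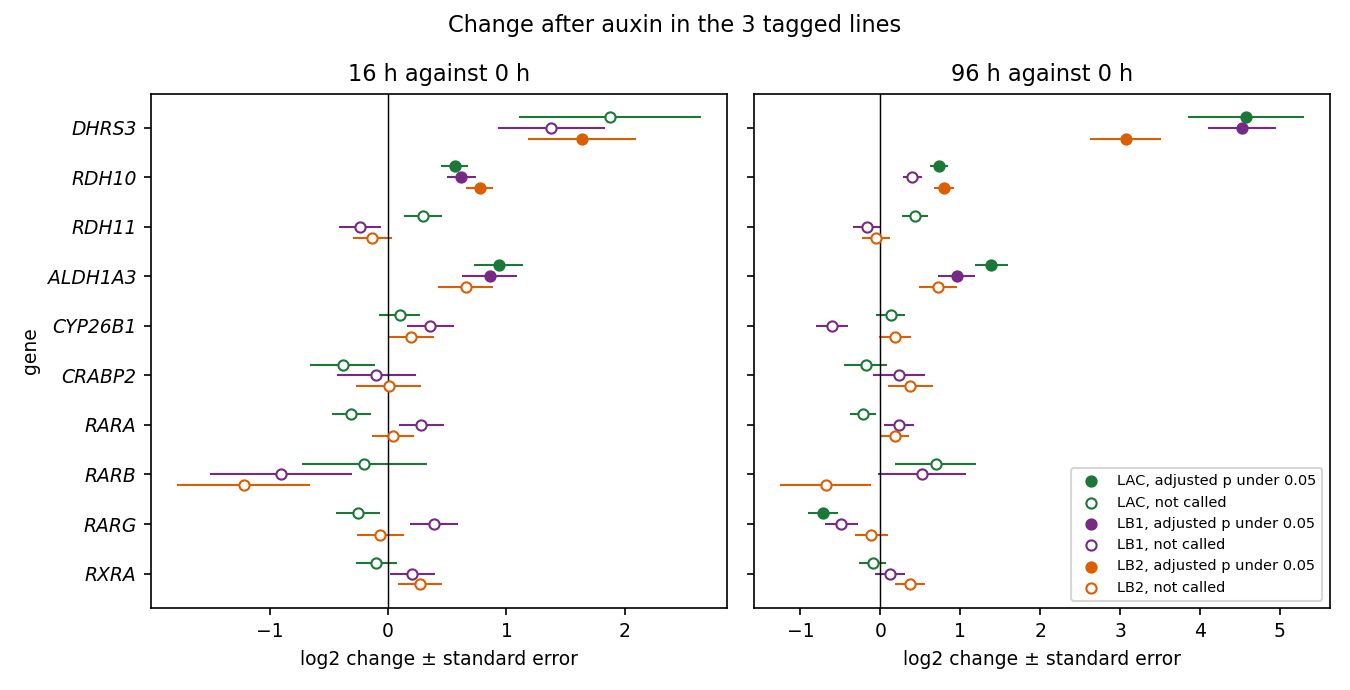
Log2 change of each gene from 0 h at 16 h (left) and 96 h (right) in the 3 tagged lines, with the standard error; filled points have an edgeR adjusted p under 0.05. DHRS3 at 96 h lies at 3.07 to 4.57, RDH10 and ALDH1A3 are positive in every line, and of the receptors RARG in LAC at 96 h alone is filled (-0.71), while RARB has the widest errors among them.

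Counted over the set, 14 of 60 tests of a tagged line against its own 0 h group were called, 13 higher and 1 lower, and DHRS3, RDH10, ALDH1A3 and RARG made up all of them. In LAC 2 genes were higher at 16 h, where 1.78% of all 21484 genes tested were called and 1.34% were higher. At 96 h 3 were higher and 1 lower in LAC, where 15.4% of all genes were called, 6.74% higher and 8.64% lower. In LB1 2 were higher at each time, against 0.987% of all genes higher at 16 h (1.5% in either direction) and 1.05% at 96 h (3.17%). In LB2 2 were also higher at each time, against 1.43% (1.81%) and 1.95% (3.55%). Between 96 and 16 h the set had 1 gene higher in LAC, where 2.05% of all genes were (5.27% in either direction), and 1 in LB2, where 1.05% were (2.5%). LB1 had 2 higher and 2 lower between these times, against 9.53% and 10.9% of all genes (20.4%). The median log2 change of the 10 genes at 96 h in LAC, LB1 and LB2 was 0.28, 0.23 and 0.28, beside 0.03, 0.04 and -0.0024 over all genes. These counts share the 0 h libraries of each line across both times, and the set was chosen with such results in view.

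No gene of the set was called for a different change between tagged lines in edgeR's quasi-likelihood test, in 60 tests. At 16 h 0.209% of all genes were called for LAC against LB1, 0.00465% for LAC against LB2 and 0.0419% for LB1 against LB2. An unadjusted p under the threshold was found for 3, 0 and 0 of the 10 genes, beside 3060, 1056 and 1309 of all 21484. At 96 h the shares called were 1.01%, 0.489% and 0.121%. In each pair 3 of 10 genes had such an unadjusted p, beside 2853, 2656 and 1572 of all genes in the same order. DESeq2 called none of these differences, and limma voom called 2, 3 and 2 at 96 h. CYP26B1 at 96 h had the difference called most often, LAC minus LB1, at 0.73 (interval 0.19 to 1.27, edgeR adjusted p 0.198), 0.96 without replicate 1 of LAC at 0 h (edgeR adjusted p 0.0336) and 0.89 after removing the trend of GC and length (edgeR adjusted p 0.00171). LB1 minus LB2 for CYP26B1 was -0.79, and -1.05 and called without replicate 1 of LB2 at 0 h (edgeR adjusted p 0.0413); without that library RARG and RXRA were also called for LAC minus LB2 (-0.90 and -0.74, edgeR adjusted p 0.0201 and 0.0405).

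At 0 h the tagged lines differed from each other in 3 genes of the set for LAC against LB1 (1 higher and 2 lower, against 9.59% and 7.74% of all genes, 17.3% in all). LAC against LB2 had 6 (3 higher and 3 lower, against 9.65% and 7.21%, 16.9% in all), and LB1 against LB2 had 3 (2 higher and 1 lower, against 5.17% and 4.67%, 9.84% in all). The genes are those given above, with RDH10 in LAC also above LB2, by 0.35 ± 0.12 (edgeR adjusted p 0.0293), a call lost in 9 of 17 alternatives, also without replicate 1 of LAC or any 1 of replicates 2, 3 and 4 of LB2 (0.26 to 0.36, edgeR adjusted p 0.0573 to 0.129). Against the parental line, whose 0 h libraries are shared by these comparisons and helped to choose DHRS3, 2 of the other 9 genes differed in LAC, where 15.8% of all genes did (8.71% higher, 7.08% lower). In LB1 1 was higher (1.62% of all genes, 4.05% in either direction) and in LB2 2 were lower (4.3%, 8.21% in either direction). DHRS3 itself was at a mean of 0.992 CPM in parental cells at 0 h, 0.143 in LAC, 1.67 in LB1 and 1.61 in LB2.

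Of 45 other retinoid pathway genes in the table, 31 were tested. In LAC 1 was higher at 16 h, and 3 were higher and 2 lower at 96 h. In LB1 none was called at 16 h, and 1 was higher and 1 lower at 96 h. At 16 h in LB1, 1 of the 31 had an unadjusted p under the threshold, beside 3288 of all 21484 genes. In LB2 1 was higher at 16 h and 2 at 96 h. Of all genes, 1.78%, 1.5% and 1.81% were called at 16 h in LAC, LB1 and LB2, and 15.4%, 3.17% and 3.55% at 96 h, so that 5 of 31 in LAC at 96 h is near the share of all genes. Medians of the 31 genes at 96 h were 0.15, 0.09 and 0.17 on the log2 scale. NRIP1, a corepressor that binds retinoic acid receptors with their ligand, was the only 1 of them called in more than 1 line. It went from 23, 47.3, 39.1 and 44.8 CPM at 0 h to 66.8, 67.7, 69.9 and 71.9 at 96 h in LAC, from 64.3, 41.2 and 53.9 to 102, 86, 98.8 and 102 in LB1, and from 20, 47.2, 42.5 and 35.9 to 67.1, 66.4 and 72.8 in LB2, with no overlap in any line. The log2 changes were 0.81 ± 0.16, 0.83 ± 0.18 and 0.86 ± 0.18 (edgeR adjusted p 0.000543, 0.00299 and 0.0019). Parental cells had 40.2, 45.2, 41.8 and 37.7 CPM of NRIP1 at 0 h, 60.5, 63.4, 61.5 and 61.5 at 16 h, and 72.2, 54.3, 77.8 and 69.7 at 96 h, so that both later groups lay above 0 h there as well. After removing the trend of GC and length the LAC change of NRIP1 was 0.49 and still called. The LB1 call was lost without LB1 replicate 2 at 0 h (0.71, edgeR adjusted p 0.0509), and NRIP1 was also higher in LB2 at 16 h, by 0.90 ± 0.17 (edgeR adjusted p 0.00191). In LB2 the NRIP1 call was lost in 1 of 17 alternatives at 16 h and in 1 of 16 at 96 h, and in none that left out a single library. The other calls described were named after their values were seen. DHRS7, a short-chain dehydrogenase, went in LAC from 83.8, 48.1, 47.2 and 50.3 CPM at 0 h to 79.0, 85.9, 92.5 and 88.1 at 96 h (log2 change 0.62 ± 0.15, edgeR adjusted p 0.00283), overlapping only through replicate 1 at 0 h. SDR16C5, a retinol dehydrogenase, fell in LB1 from 20.9, 19.9 and 22.5 CPM to 14.4, 10.5, 11.6 and 9.47 at 96 h (-0.89 ± 0.20, edgeR adjusted p 0.00414), a call lost without LB1 replicate 3 at 0 h (-0.83, edgeR adjusted p 0.0572). Parental DHRS7 was at 46.8, 53, 57.9 and 39.4 CPM at 0 h and 65.9, 64.5, 68 and 61.5 at 96 h, without overlap. Parental SDR16C5 was at 19.7, 20.6, 21.7 and 18.1 CPM at 0 h and 19.1, 16.9, 16.8 and 13.2 at 96 h, which overlap. DGAT1, an acyltransferase, was lower at 96 h in the LAC line (-0.46 ± 0.14, edgeR adjusted p 0.019). The DGAT1 call was lost without replicate 1 of LAC at 0 h or replicate 2 or 3 at 96 h (-0.44 to -0.37, edgeR adjusted p 0.061 to 0.0862), and its change was -0.05 after removing the trend of GC and length. Of the coactivators, NCOA3 was called higher at 16 h in LAC (0.55 ± 0.15, edgeR adjusted p 0.0367) and NCOA1 at 96 h in LB2 (0.75 ± 0.22, edgeR adjusted p 0.0416). Both lost the call without most single libraries, all but replicate 2 at 0 h for either gene (0.43 to 0.60 and 0.62 to 0.83, edgeR adjusted p 0.051 to 0.235 and 0.0579 to 0.176). STRA6 in LAC at 96 h is given below. LRAT, which stores retinol as esters, and RXRG were under 1 CPM in every library, and CRABP1 was at 0 in all.

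Of 26 genes widely known to be induced through retinoic acid receptors, 4 of which are in the set, 18 were tested. At 96 h 5 were higher and 2 lower in LAC, 5 higher in LB1 and 4 higher in LB2. At 16 h none was called in LAC, 1 was higher in LB1 and 2 in LB2. In LAC at 16 h 5 of the 18 had an unadjusted p under the threshold, beside 4296 of all 21484 genes. At 96 h 6.74% of all genes were higher and 8.64% lower in LAC, 1.05% were higher in LB1 and 1.95% in LB2, and at 16 h 0.987% were higher in LB1 and 1.43% in LB2. The higher calls at 96 h in each line and at 16 h in LB2 include DHRS3, which is already counted in the set, and NRIP1, which is counted among the pathway genes too. Medians at 96 h were 0.23, 0.47 and 0.35. ELF3, an epithelial transcription factor, rose in LB1, with 16 h and 96 h changes of 0.65 ± 0.14 and 1.24 ± 0.14 (edgeR adjusted p 0.0128 and 4.93e-08), from 44.9, 52.4 and 46.5 CPM to 97.5, 117, 114 and 120.2, with no overlap. Parental ELF3 was at 37.3, 31.5, 44.1 and 38.9 CPM at 0 h, 50.8, 55.6, 54.2 and 59.6 at 16 h, and 63.7, 80.9, 63.3 and 67.4 at 96 h, so that its parental groups did not overlap either. The 16 h call of ELF3 in LB1 was lost without LB1 replicate 1 or 3 at 0 h (0.61 and 0.64, edgeR adjusted p 0.103 and 0.085). BTG2, an antiproliferative gene, rose at 96 h in LAC by 0.65 ± 0.20 and in LB1 by 0.84 ± 0.21 (edgeR adjusted p 0.02 and 0.0148). Each BTG2 call was lost without some single libraries, 4 in LAC and 2 in LB1, namely replicates 1 and 3 at 0 h for LB1 and replicates 1 and 4 at 0 h and 1 and 3 at 96 h for LAC (0.58 to 0.87, edgeR adjusted p 0.0548 to 0.0968). PLAAT4, also known as RARRES3, was at 0, 0.111, 0.159 and 0 CPM in LAC at 0 h and 0.561, 1.29, 0.879 and 1.25 at 96 h, and in LB2 at 0.554, 0.0618, 0.092 and 0 against 5.24, 2.13 and 2.5 (edgeR adjusted p 0.00176 and 0.000138). Parental PLAAT4 was at 0.242 to 0.731 CPM at 0 h and 0.357 to 2.53 at 96 h, which overlap. Parental BTG2 was at 5.56 to 8.09 CPM at 0 h and 6.62 to 10.3 at 96 h, which also overlap.

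Further calls of that list were named after their values were seen. TGM2, a transglutaminase, went in LB2 from 17.7, 9.71, 10.4 and 7.9 CPM to 19.8, 29.9 and 26.1 at 96 h, without overlap (1.22 ± 0.28, edgeR adjusted p 0.00646), a call lost without replicate 2 at 96 h (1.10, edgeR adjusted p 0.0592). Parental TGM2 went the other way, from 4.26 to 6.52 CPM at 0 h to between 2.11 and 3.57 at 96 h, without overlap. RARRES1, a retinoic acid receptor responder, went in LB1 from 0.992, 1.33 and 1.47 CPM to 5.09, 4.36, 4.14 and 2.09 (1.70 ± 0.48, edgeR adjusted p 0.036). That call was lost without any 1 of the LB1 libraries except replicate 4 at 96 h (1.45 to 1.92, edgeR adjusted p 0.0641 to 0.239). Parental RARRES1 was at 0.538 to 4.35 CPM at 0 h and 1.4 to 3.35 at 96 h, which overlap. ICAM1, an adhesion molecule, was lower at 96 h in the LAC line (-0.60 ± 0.17, edgeR adjusted p 0.0144), a call lost without replicate 4 at 0 h or replicate 3 at 96 h (-0.53 and -0.55, edgeR adjusted p 0.0524 and 0.0539).

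STRA6, the membrane receptor that takes up retinol, belongs to both lists and is also named after its values were seen. In LAC it had 0 counts in every library at 0 h and 0.747, 0.895, 0.602 and 0.954 CPM at 96 h (edgeR adjusted p 0.000998). The 96 h mean was 13.2 times the 3 counts, pooled over the 0 h group, that 0 allows (0.0604 CPM). That ratio leaves out counting error at 96 h and the spread between wells. In replicate 1 of LAC at 0 h alone, 3 counts are 0.971 CPM, above each 96 h value. In LB2 STRA6 was at 0 to 0.554 CPM at 0 h and 1.15, 1.63 and 1.12 at 96 h, which was not called. Parental STRA6 was at 0 to 0.242 CPM at 0 h and 0 to 0.399 at 96 h.

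**Figure D5:**
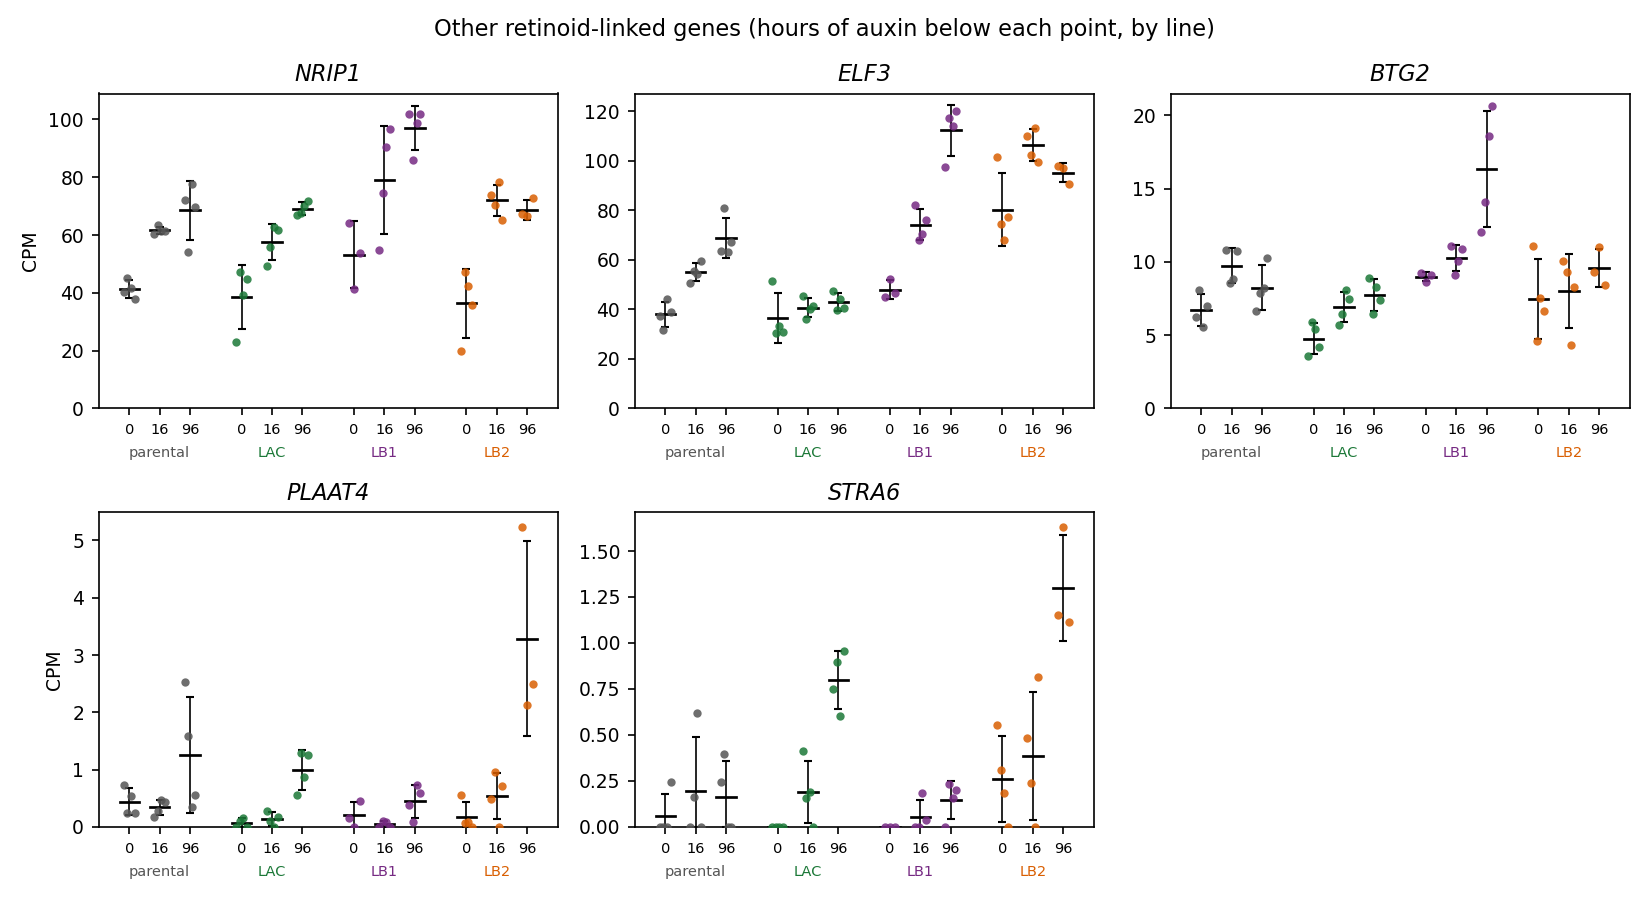
NRIP1, ELF3, BTG2, PLAAT4 and STRA6 in every library, in CPM from 0, by line and hours of auxin; points are libraries, bars are group means and error bars are SD, cut at 0. NRIP1 is higher at 96 h than at 0 h in every library of each tagged line, and ELF3 in LB1 reaches 97.5 to 120.2 CPM.

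Across the 12 group means of log2 CPM, the genes closest to DHRS3 among 14005 genes with a symbol and a mean of at least 1 CPM were TRAPPC6A (Pearson r 0.96), TPD52L1 (0.94) and LIN52 (0.94). Within the set the genes closest to DHRS3 were ALDH1A3 (0.59) and RDH10 (0.58), and RDH10 and ALDH1A3 had 0.76 with each other. The lowest value in the set was that of CRABP2 and RARG (-0.79). These are descriptions over groups that share lines, times and libraries. The 12 groups include the parental ones, whose DHRS3 values chose the set.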

How the data were processed

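Total RNA (Illumina Stranded Total RNA with Ribo-Zero Plus, per the labels' protocols) was read paired-end. The authors deposited raw counts per gene, made with featureCounts 1.6.4 in an nf-core-rnaseq 1.4.2 environment, per the file headers. The submitters' processing notes name STAR 2.7.10a and GRCh38; the strand setting and annotation release are not given in the sources used here. One gene whose entry was broken was left out.

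Counts were scaled by TMM, filtered with filterByExpr and tested with edgeR 4.0.16 (R 4.3.3), quasi-likelihood, in 1 model of all 46 libraries and 12 groups, with Benjamini-Hochberg adjustment over 21484 genes and a threshold of 0.05. Standard errors and 95% intervals are Wald values from the same fit. CPM, floors and pooled levels used the TMM-scaled (effective) library sizes. The test was also run on counts simulated with no libraries that stand apart and no GC trend. That run does not cover these features of the data. The members and lists were chosen with earlier results of these data known. All 10 members were named, with any list gene called in at least 2 of the 6 comparisons of a tagged line with 0 h, and the 3 genes most like DHRS3.

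Depth was 479446 to 37309421 counts per library. Over 66 replicate pairs the chi-square per degree of freedom was at least 3.97, so each counted as 1 sample. Each result was recomputed with library size only, RLE scaling, no filter, DESeq2 1.42.0, voom with sample quality weights (limma 3.58.1), a replicate block, removal of the trend with GC and length, the compared groups alone, no libraries under 5000000 counts, and each library left out in turn. Those for genes of the lists were added after seeing the data. Single calls of the gene lists that are counted but not named are not reported here.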

Additional observations from a re-analysis of the deposited data

Results flagged for a closer look

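Of 100 groups of 4 libraries (the 10 genes in the 10 groups that have 4), 12 held 1 library far from the other 3 by Dixon's test, and chance alone sets apart about 1 in 20 groups. The libraries of a series share these tests, and 4 of the 12 are replicate 1 of LB2 at 0 h, a library of low depth that stands apart over all genes. In it CYP26B1 was at 67.1 CPM beside 31.2 to 35.1 in the others, CRABP2 at 28.8 beside 11.1 to 13.2, RARG at 82.6 beside 34.4 to 40.5, and RXRA at 95.4 beside 44.8 to 46.8. CRABP2 in replicate 1 of LAC at 0 h, which also stands apart, was 12.3 CPM beside 6.06 to 7.09. ALDH1A3 in replicate 3 of LB2 at 16 h, the shallowest library, was 2.18 CPM beside 6.1 to 6.78. The remaining values were DHRS3 in replicate 4 of LB1 at 16 h (5.31 CPM beside 2.71 to 3.08), CRABP2 in replicate 4 of the parental line at 16 h (3.53 beside 5.28 to 5.41), and CRABP2 in replicate 4 of LAC at 16 h (6.41 beside 5.47 to 5.61). RXRA in that same LAC library was 64.9 CPM beside 73.5 to 74.4. RARG was 66.3 CPM in replicate 2 of the parental line at 0 h beside 71.4 to 71.8, and 149 in replicate 1 of LB1 at 16 h beside 101 to 107.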

How the results depend on the processing

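Of 1378 alternatives over 81 results, 1146 were taken as unchanged, 141 lost a call, 5 gained one, 86 moved a count of called genes of the set by more than 1.5 times, and 0 reversed. For single genes with a test, 806 of 952 alternatives kept the direction and the side of the threshold. The parental DHRS3 changes, which have no test, were taken as unchanged when they moved by less than their standard error. Counts within 1.5 times the main one were taken as unchanged; 137 of the 392 alternatives of such counts gave another count. The counts listed for other settings are those that moved further, the ranges over single libraries left out include smaller moves, and the cause of a change was not tested. After removing the trend of GC and length the set had 1 call in LAC at 16 h, 4 in LB1 at 96 h, 3 in LAC between 96 and 16 h, 1 each for the 96 h change in LAC minus LB1 and in LB1 minus LB2, and, at 0 h, 6 for LAC against LB1, 5 for LB1 against LB2, 1 for LAC against parental and 4 for LB1 against parental. With the compared groups alone it had 0 in LAC at 16 h, 1 in LB1 at 16 h, 5 in LB1 at 96 h, 0 in LB2 at 16 h, 1 in LB2 at 96 h, 3 in LAC between 96 and 16 h, and, at 0 h, 1 for LAC against LB1, 0 for LAC against LB2, 0 for LAC, 3 for LB1 and 1 for LB2 against parental; DHRS3 in LB2 at 16 h was then 1.44 (edgeR adjusted p 0.717). RLE scaling gave 1 in LB1 and 1 in LB2 at 16 h, 1 for LAC and 1 for LB2 against parental, and 1.55 for DHRS3 in LB2 at 16 h (edgeR adjusted p 0.0655). Library size only gave 1 in LB1 and 1 in LB2 at 16 h, 3 in LAC between 96 and 16 h, 1 for LAC against parental, and 1.55 for DHRS3 in LB2 at 16 h (edgeR adjusted p 0.066). That scaling moved the median of all genes most in LB1 between 96 and 16 h, to 0.27 from 0.08. No filter gave 1 in LB1 at 96 h, 1 for LAC against parental, and DHRS3 at 16 h of 1.92 in LAC and 1.4 in LB1, both called (edgeR adjusted p 0.0253 and 0.0266). With voom there were 5 in LB1 at 96 h, 5 in LB2 at 16 h, 7 in LB2 at 96 h, 3 in LAC and 2 in LB2 between 96 and 16 h, 2, 3 and 2 for the 96 h changes in LAC minus LB1, LAC minus LB2 and LB1 minus LB2, and, at 0 h, 6 for LAC against LB1, 5 for LB1 against LB2 and 3 for LB1 against parental; DHRS3 in LB1 at 16 h was 2.01 (limma adjusted p 0.00297). Without libraries under 5000000 counts there were 5 in LB2 at 96 h, 2 in LAC and 2 in LB2 between 96 and 16 h, 1 for the 96 h change in LAC minus LB1, 5 for LB1 against LB2, 1 for LAC and 2 for LB1 against parental, and DHRS3 in LB1 at 16 h was 1.499 (edgeR adjusted p 0.0337). DESeq2 gave 1 for LAC against parental. Leaving out 1 library gave 1 to 2 in LAC, 0 to 2 in LB1 and 1 to 2 in LB2 at 16 h, 3 to 5 in LAC, 1 to 3 in LB1 and 2 to 4 in LB2 at 96 h, 3 to 4 in LB1 and 0 to 1 in LB2 between 96 and 16 h, 0 to 1, 0 to 2 and 0 to 1 for the 96 h changes in LAC minus LB1, LAC minus LB2 and LB1 minus LB2, 2 to 4 for LAC against LB1, 3 to 7 for LAC against LB2, 3 to 5 for LB1 against LB2, 0 to 3 for LAC and 1 to 2 for LB2 against parental at 0 h; DHRS3 at 16 h ranged from 0.58 to 2.59 in LB1 and from 1.19 to 1.88 in LB2.

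Replicate numbers mark wells, and same-numbered wells did not deviate together in every pair except in LAC at 16 against 0 h (correlations 0.124 to 0.691), so they were not taken as pairs. The replicate block gave 5 called genes of the set in LAC at 96 h, 3 in LB1 between 96 and 16 h and 4 for LAC against LB1 at 0 h, left the other counts as they were, and among the called changes it lost 1, RARB in LB1 between 96 and 16 h (1.33, edgeR adjusted p 0.0591). Depth limits DHRS3 in LAC at 0 h, RARB, STRA6 and PLAAT4 most, since they had few counts or none in single libraries.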
